A study of Mus musculus with 4 samples.

Results

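Solute carriers are the largest group of membrane transporters in mammals, and MOV10 peaks were found in 36 of the 375 genes that bear their symbols. The genes were taken as all protein-coding RefSeq genes of the mouse assembly GRCm38.p6 whose symbol starts with Slc followed by a digit, out of 21900 protein-coding genes in all, and a peak was counted for a gene when its midpoint lay in the gene's annotated span. The symbols also took in genes that are not carriers, the scaffold genes Slc9a3r1 and Slc9a3r2, the adaptor gene Slc4a1ap and Slc7a6os, which is named for its position opposite Slc7a6. These 4 had no peak and stayed in the counts of the Slc9, Slc4 and Slc7 families. The 36 genes held 249 of the 12236 listed peaks.

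Solute carriers move amino acids, sugars, ions, metals, vitamins, nucleotides and neurotransmitters across the plasma membrane and the membranes of organelles, mostly by facilitated diffusion or by coupling the solute to an ion gradient. The number after Slc names the family, which largely groups carriers by substrate, and neurons depend on them for glutamine and taurine supply, transmitter uptake, calcium extrusion and metal balance. MOV10 is an RNA helicase that acts with Argonaute proteins on mRNAs in the cytoplasm, and the 3′ untranslated region of an mRNA is where Argonaute proteins mostly bind.

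The peaks came from eCLIP, which sequences the RNA fragments crosslinked to an immunoprecipitated protein beside a size-matched input. The cells were N2A, an established mouse neuroblastoma line, kept in DMEM with 10% FBS and, as far as the labels say, neither treated nor genetically altered. An antibody against MOV10 was used, and the series holds 2 immunoprecipitate and 2 input libraries, with nothing said on whether the replicates were separate cultures. All 4 libraries enter a single list of reproducible peaks, in which the authors gave each peak 1 enrichment over input, on the log2 scale and called log2 fold enrichment here, and 1 −log10 p. No spread between replicates could therefore be given, and the read depth was not known. Values per library and RNA levels were not analysed here, so the cell line could not be checked against its markers.

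The share of solute carrier genes with a peak was close to that of coding genes in general. It was 9.60% (36 of 375), beside a background of 8.53% (1868 of 21900 coding genes). Counting only peaks with log2 fold enrichments from 4 upwards, it was 5.07% (19 genes), beside 3.59% (786 genes). Of other transporter groups defined by symbol, 4 of 50 ABC transporter genes, 5 of 41 P-type ATPase genes, 3 of 26 genes of the V-type ATPase, 3 of 21 genes of major facilitator superfamily domain proteins, 1 of 14 genes of organic anion transporting polypeptides and 0 of 11 aquaporin genes had a peak. The list starts at a log2 fold enrichment of 3.001, and how strongly each carrier is expressed in N2A cells was not known. A gene without a peak was thus not shown to be unbound.

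The 4 peaks in Slc3a1 lay on the strand opposite to the gene. Slc3a1, on the plus strand of chromosome 17 (85028347 to 85064241), encodes the heavy chain that carries a cystine transporter to the cell surface. Its peaks, with log2 fold enrichments of 5.40, 3.96, 3.95 and 3.73, were on the minus strand and also within Prepl (85062511 to 85090504), a peptidase gene annotated on that strand. All 6 peaks of Prepl were on its own strand, 1269 to 1925 nt from its 3′ end. By strand the peaks belong to Prepl, which leaves 35 solute carrier genes (9.33%) with 245 peaks, beside 8.28% of all coding genes when peaks on the opposite strand are left out. In the other 24 genes whose strand was given all peaks were on the gene's strand. For the 11 genes without a given strand the direction was taken from the peaks, which never lay on both strands of a gene. In these genes peaks opposite to the gene could not be told apart. No other solute carrier peak had its midpoint in a second gene.

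Members with peaks were unevenly spread over the families, and carriers of amino acids and of zinc were the classes with most of them. The 375 genes fall into 51 families, of which 19 had a member with a peak. Counting only peaks in exactly 1 gene, which drops Slc3a1, the number was 18. Amino acid carriers of the Slc7, Slc36, Slc38 and Slc43 families had peaks in 7 of 34 genes and held 116 of the 249 peaks. Of these 116, 99 lay in Slc38a1, Slc7a14 and Slc7a1, and peaks of 1 gene are not independent. This class of 34 genes leaves out other amino acid carriers. The Slc1 family of glutamate and neutral amino acid carriers, kept apart, had peaks in 0 of 7 genes, and Slc6 was also counted separately. Zinc carriers had peaks in 7 of 24 genes, 6 of 14 in the importer family Slc39 and 1 of 10 in the exporter family Slc30. Mitochondrial carriers of the Slc25 family had peaks in 5 of 47 genes, and the Slc6 family of sodium- and chloride-coupled carriers in 3 of 21. The Slc35 family of nucleotide sugar carriers and their relatives had peaks in 3 of 27. These counts are small, the background was 8.53%, and the families were looked at with results of these data known, so no family was tested against the rest.

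**Figure D1:**
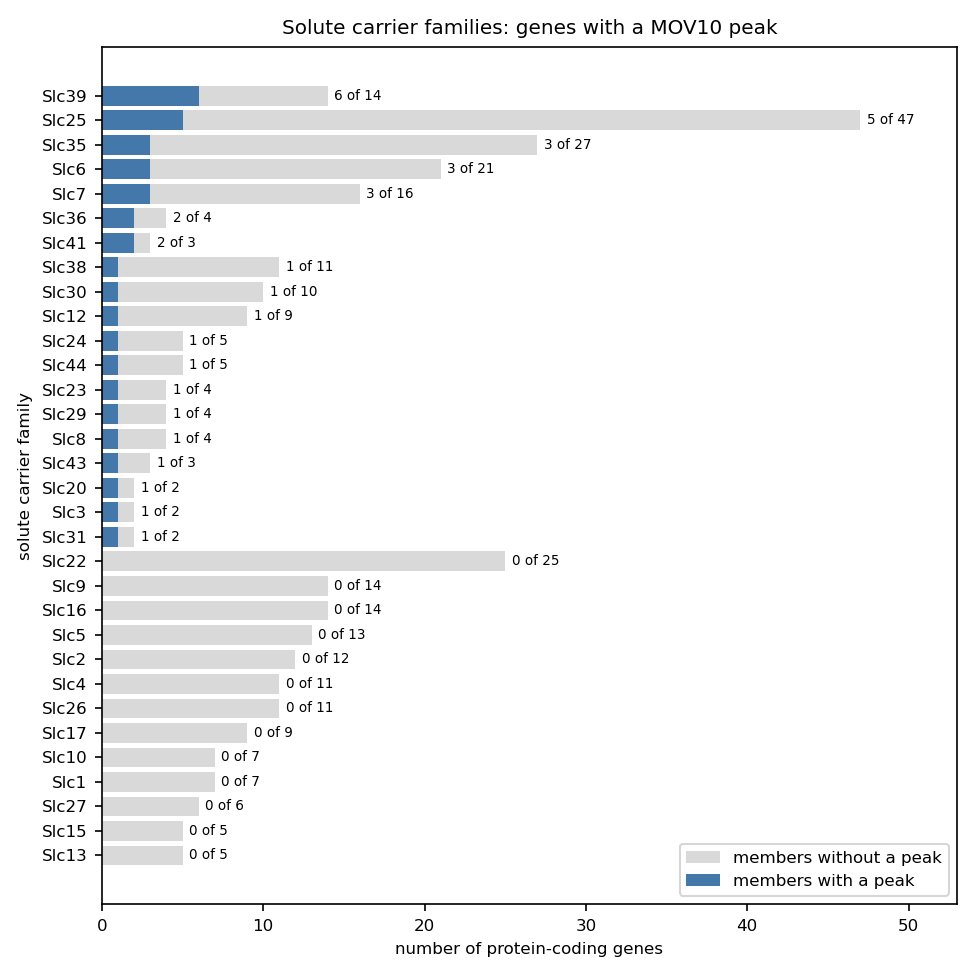
Number of protein-coding genes per solute carrier family, with genes that held a MOV10 peak in blue and the others in grey, for families with at least 5 members or with a peak. Slc39 has 6 of 14 genes with a peak and Slc25 has 5 of 47, while 13 families of at least 5 members, such as Slc22 with 25, have none.

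Another 32 families, with 182 genes, had no peak at all. The Slc3 family is not among them, though its only peaks are those of Slc3a1 on the opposite strand. At a background of 8.53% nothing is read from a count of 0 in a single family. The families without a peak included the organic ion carriers Slc22 (0 of 25), the sodium-proton exchangers Slc9 (0 of 14), the monocarboxylate carriers Slc16 (0 of 14), the sodium-glucose family Slc5 (0 of 13), the facilitative glucose carriers Slc2 (0 of 12), the bicarbonate carriers Slc4 (0 of 11) and the anion exchangers Slc26 (0 of 11). Carriers of the vesicular families Slc17, Slc18 and Slc32, some of which load synaptic vesicles with transmitter, had peaks in 0 of 14 genes. Of 30 well-known transporter genes named from general knowledge, 3 had peaks, Slc7a1, Slc38a1 and Slc7a5, a share near the background of 8.53%, so nothing is read from the genes without. Those without included the glutamate transporters Slc1a1, Slc1a2 and Slc1a3, the glutamine transporter Slc1a5, the glucose transporters Slc2a1 and Slc2a3, the transporters of noradrenaline, dopamine and serotonin (Slc6a2, Slc6a3 and Slc6a4), the chloride cotransporters Slc12a2 and Slc12a5, and the lactate transporter Slc16a1.

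The members with peaks ranged widely in strength. Their strongest log2 fold enrichment ran from 3.23 in Slc43a2 to 5.68 in Slc7a1, with a median of 4.09, beside 3.84 over all 1868 coding genes with a peak. It was 5 or more in 6 genes, 4 to 5 in 13 and under 4 in 17. The share at 5 or more was 16.7%, and 14.3% (5 genes) without Slc3a1, beside 8.83% of all coding genes with a peak. Over single peaks the median was 3.86, beside 3.70 for all coding genes, and 3.70 once Slc38a1 was left out. The median gene held 3 peaks in both sets, and 11 members (30.6%) held a single peak, beside 29.2% of all coding genes with a peak. In 16 of the 36 members the strongest peak had a −log10 p under 5, so their order by strength is less certain. The same count was not made over all coding genes.

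**Figure D2:**
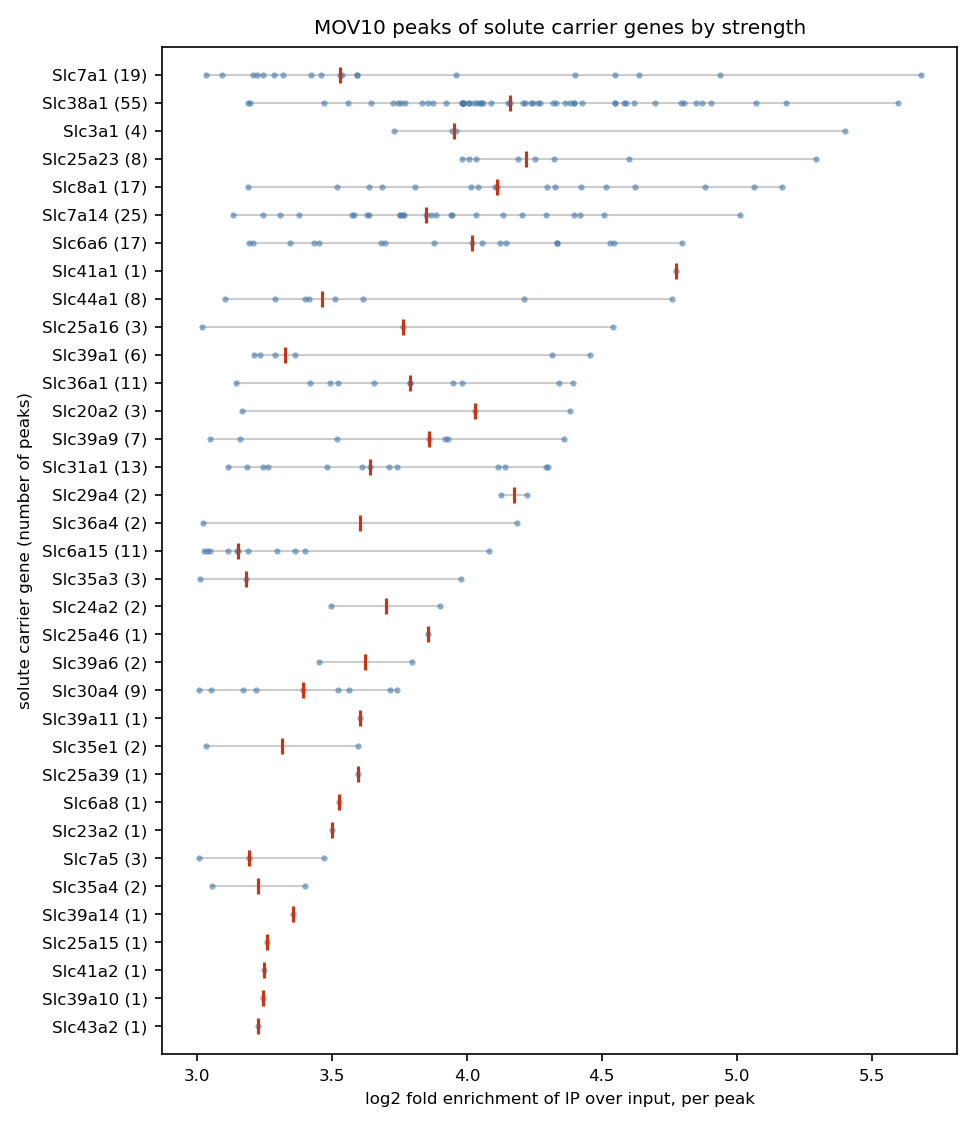
Log2 fold enrichment of immunoprecipitate over input for each peak (blue points), 1 row per solute carrier gene, 1 gene left out, with the number of its peaks in brackets, the range as a grey line and the median as a red tick. Genes are ordered by their strongest peak, from 3.23 in Slc43a2 to 5.68 in Slc7a1, and the points of Slc3a1 are the 4 peaks on the opposite strand.

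A few genes held most of the peaks. Slc38a1 alone held 55 (22.1%), the 3 genes with most peaks 99 (39.8%) and the 10 with most 185 (74.3%). Once touching peaks were merged, Slc38a1 had 21 intervals. Genes with 10 or more peaks held 168 of the 249 in the members (8 of 36 genes). Over all coding genes they held 7838 of 12247 (400 of 1868 genes), where a peak counts once per gene it lies in. The concentration was thus not particular to solute carriers. The strongest value of a gene tends to grow with the number of its peaks by construction. The 8 members with 10 or more peaks had a median strongest log2 fold enrichment of 4.90, the 17 with 2 to 9 peaks 4.19 and the 11 with a single peak 3.50. The same order held over all coding genes with a peak, at 4.78, 3.86 and 3.31. The median over a gene's own peaks differed less, with medians of 3.82, 3.62 and 3.50 for the members and 3.79, 3.46 and 3.31 for all coding genes. Among the 8 with 10 or more peaks the highest −log10 p of a gene ranged from 10.6 to 64.5, and among those with a single peak from 3.02 to 10.8.

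**Figure D3:**
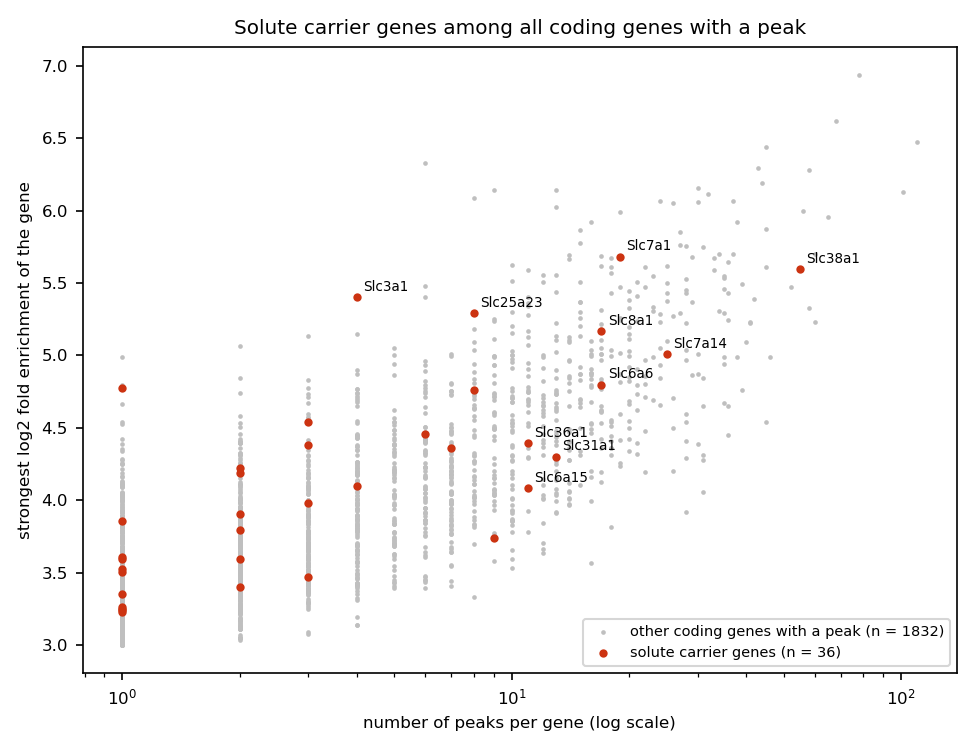
Strongest log2 fold enrichment of each gene against its number of peaks on a log scale, with the 36 solute carrier genes in red and the 1832 other coding genes with a peak in grey. The solute carrier genes lie within the cloud of the other genes, with Slc38a1 farthest to the right at 55 peaks.

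Among amino acid carriers, Slc38a1 had the broadest signal. It encodes a sodium-coupled carrier of glutamine and other small neutral amino acids that supplies neurons with glutamine, and lies on chromosome 15 (96571418 to 96643438). Its 55 peaks placed it eleventh of all coding genes by number of peaks, and their log2 fold enrichments ran from 3.19 to 5.60 with a median of 4.16. The peaks covered 2880 nt and all lay 247 to 4945 nt from the 3′ end, with no gap of more than 1 kb between neighbours. The strongest was at 96574161 to 96574211, 2768 nt before the end, with a −log10 p of 55.3. A second maximum of 5.18 lay at 96572072 to 96572129, 682 nt from the end. A log2 fold enrichment of 4 or more was reached by 37 of the 55 peaks (67.3%). The other 10 members of the family, among them the close relative Slc38a2, had no peak. The family's share with a peak, 9.09%, was near the background of 8.53%, so nothing is read from the members without.

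The cationic amino acid family Slc7 held the strongest peak of all solute carriers. Slc7a1 encodes the main carrier of arginine and lysine into cells, and its mRNA is a textbook case of microRNA repression that is relieved by HuR. The gene lies on chromosome 5 (148327410 to 148399904). Its 19 peaks lay 99 to 3710 nt from the 3′ end. The strongest reached 5.68 at 148329167 to 148329232, a 51.4-fold linear enrichment, with a −log10 p of 25.9. It stood above a low median of 3.53, and the 5 peaks of 4 or more all lay within 1537 to 1945 nt from the end.

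Slc7a14, which encodes a lysosomal relative of these carriers found mainly in neural tissue, held 25 peaks on chromosome 3 (31202854 to 31310567). Their log2 fold enrichments ran from 3.13 to 5.01 with a median of 3.85, and the strongest was at 31205200 to 31205249. A group of 22 peaks lay 230 to 2370 nt before the 3′ end, with the strongest at its far edge, and 3 formed a separate group at 3808 to 3903 nt. Slc7a5, the light chain of the large neutral amino acid carrier that brings leucine into cells, held 3 weak peaks of up to 3.47. The other 13 members of Slc7 had none, the cystine carrier Slc7a11 among them, and Slc3a2, the heavy chain that pairs with Slc7a5, had none either. The share of Slc7 with a peak was 18.8%, beside the background of 8.53%, and nothing is read from the genes without.

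Carriers that pass amino acids out of lysosomes and across the plasma membrane were also found. Slc36a1, a proton-coupled carrier of small amino acids on lysosomes, held 11 peaks of up to 4.39, the strongest on chromosome 11 at 55235739 to 55235779, 571 nt from the 3′ end. The peak with its highest −log10 p, 58.8, was another one, with a log2 fold enrichment of 3.66. Slc36a4 of the same family had 2 peaks, of 4.19 and 3.02. Their −log10 p values, 3.02 and 3.21, were near the lowest in the list, 3.005. Slc43a2, a carrier of branched-chain and aromatic amino acids, had a single peak at 3.23, the weakest of all members.

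In the Slc6 family 3 of 21 genes (14.3%) had peaks, beside the background of 8.53%, namely carriers of taurine, creatine and neutral amino acids. All other members had none, the carriers of noradrenaline, dopamine and serotonin among them, so no contrast by substrate is read from 3 genes. Slc6a6, the taurine carrier, held 17 peaks on chromosome 6, 451 to 3826 nt from the 3′ end. Its strongest reached 4.80 at 91756665 to 91756755 and had the highest −log10 p of all solute carrier peaks, 64.5. The median of the 17 peaks was 4.02. Slc6a15, a neuronal carrier of branched-chain amino acids and proline, held 11 peaks with a strongest of 4.08 and a median of 3.15. Slc6a8, the creatine carrier, had a single peak of 3.52.

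Of 34 carriers of zinc and other metals 10 had peaks (29.2% of the zinc and 30% of the other metal carriers), beside the background of 8.53%. This set pools 2 small classes, magnesium carriers included, and was not tested. In 4 of these 10 a peak reached 4, beside 42.1% of all coding genes with a peak. In the zinc importer family, Slc39a1 held 6 peaks of up to 4.46 within 320 nt, and Slc39a9, a Golgi member, held 7 of up to 4.36. The strongest peak of Slc39a9 had a −log10 p of 3.58. Slc39a6 had 2 peaks of up to 3.79, and Slc39a11, Slc39a14 and Slc39a10 had 1 each, of 3.60, 3.36 and 3.24. Of this family only Slc39a1 and Slc39a9 had a peak of 4 or more. The exporter gene Slc30a4 held 9 peaks, all under 4, with a strongest of 3.74. Slc31a1, which encodes the high-affinity copper importer, held 13 peaks from 3.11 to 4.30 that lay 337 to 2652 nt from the 3′ end. Of the magnesium carriers, Slc41a1 had a single peak of 4.77 and Slc41a2 one of 3.25. The peak of Slc41a1 was strong for a gene with a single peak, since 3 of the 546 coding genes with 1 peak, itself included, reached that value, but its −log10 p was 4.34.

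Of the ion and phosphate carriers, Slc8a1 had all its peaks, and Slc20a2 had 1, far from the 3′ end. Slc8a1 encodes the sodium-calcium exchanger of the plasma membrane, which removes calcium from excitable cells, and spans 365283 nt on chromosome 17 (81373105 to 81738387, minus strand). All 17 peaks lay within 81647818 to 81649568, which is 274761 to 276429 nt from the annotated 3′ end. Their log2 fold enrichments ran from 3.19 to 5.17 with a median of 4.11, and 12 of them were 4 or more. The strongest, at 81648595 to 81648714, had a −log10 p of 19.7. Slc8a1 is known for a large early coding exon that also gives an abundant circular RNA, but exons were not annotated in the table used, so whether the peaks lie on that exon was not determined. Slc24a2, a neuronal sodium-calcium-potassium exchanger, had 2 peaks of 3.90 and 3.50 near its 3′ end. Slc20a2, a sodium-phosphate cotransporter, had 2 peaks at 330 and 522 nt from the 3′ end and its strongest, 4.38, at 18111 nt from it. That strongest peak had a −log10 p of 4.52.

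Mitochondrial carriers with peaks were led by Slc25a23, a carrier of ATP-magnesium and phosphate. Its 8 peaks on chromosome 17 lay 161 to 1367 nt from the 3′ end, and 7 of them had a log2 fold enrichment of 4 or more. The strongest, 5.29, was at 57044007 to 57044146 with a −log10 p of 10.8. The median of its peaks, 4.22, was slightly above the 4.16 of Slc38a1. Slc25a16 held 3 peaks, of 4.54, 3.76 and 3.02. Slc25a46, a protein of the outer mitochondrial membrane, had 1 peak of 3.86, Slc25a39, a carrier of glutathione, 1 of 3.60 and Slc25a15, the ornithine carrier, 1 of 3.26. The abundant adenine nucleotide carriers Slc25a4 and Slc25a5 had none. The share of the Slc25 family with a peak was 10.6%, beside the background of 8.53%, so nothing is read from the members without.

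The remaining members belong to families that carry lipid precursors, sugars bound to nucleotides, vitamins and amines. Slc44a1, the choline carrier, held 8 peaks on chromosome 4 from 53565803 to 53567064. They had a median of 3.46 and a strongest of 4.76, and lay 55426 to 56653 nt from the annotated 3′ end. Slc29a4, a carrier of monoamines and nucleosides, had 2 touching peaks of 4.22 and 4.13, with −log10 p values of 3.77 and 7.57. Of the Slc35 family of nucleotide sugar carriers and relatives, Slc35a3, which brings UDP-N-acetylglucosamine into the Golgi, had 3 peaks of up to 3.98. Its family members Slc35e1 and Slc35a4 had 2 each, of up to 3.60 and 3.40. Slc23a2, the vitamin C carrier of neurons, had 1 of 3.50.

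Positions along the gene followed those of other coding genes. The 31 members that span 15 kb or more held 237 peaks, and 205 of these (86.5%) were centred in the last 5 kb before the annotated 3′ end, beside 85.9% for all coding genes. The median distance was 1752 nt, beside 1615 nt, and 14.8% lay within 500 nt, beside 14.7%. These values include the 4 peaks of Slc3a1 on the opposite strand. Without Slc3a1 they were 86.3% within 5 kb, a median of 1789 nt and 13.3% within 500 nt. No peak lay within 5 kb of a 5′ end, where all coding genes of this size had 43 of 10866 peaks. All peaks were within the 5 kb in 27 of the 31 genes. Slc8a1 and Slc44a1 had none there, and their 25 peaks made up most of the 32 outside. The other 7 were the 1 of Slc20a2 and 6 of Slc6a15, which were scattered from 9577 to 30076 nt and had log2 fold enrichments of at most 3.30. Without Slc8a1 the share within 5 kb was 93.2%. Leaving out Slc38a1 instead, whose 55 peaks all lay there, gave 82.4%. For 100 of the 249 member peaks, those of Slc38a1, Slc6a6 and Slc6a15 among them, the gene's strand was not given. Their 3′ end was set by the strand of the peaks themselves. Over all coding genes the strand was not given for 2607 of 12247 peaks.

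**Figure D4:**
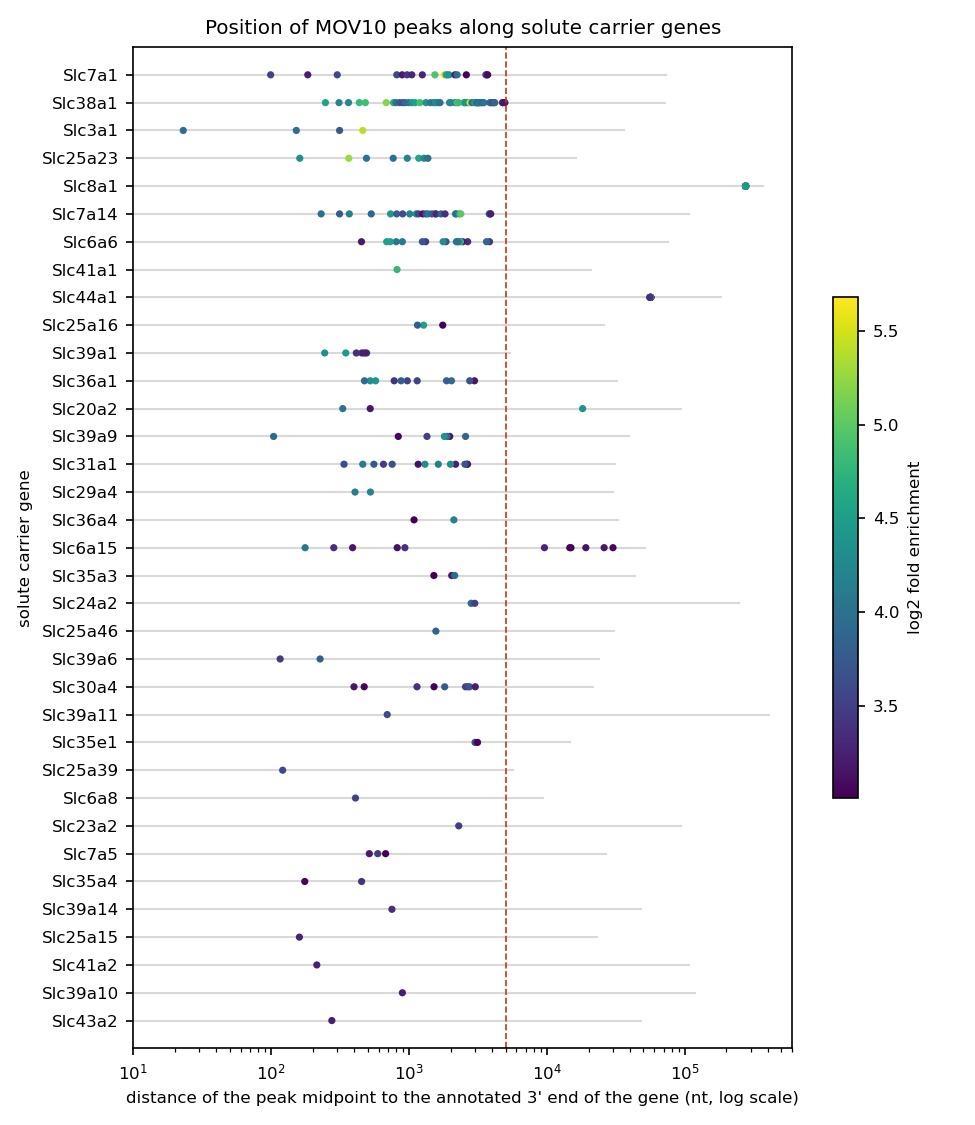
Distance of each peak midpoint to the annotated 3′ end on a log scale, 1 row per solute carrier gene, 1 gene left out, coloured by log2 fold enrichment, with the gene's span as a grey line and 5 kb as a dashed red line. Slc8a1 and Slc44a1 have all of their peaks, and Slc6a15 and Slc20a2 some, to the right of the dashed line.

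The peaks of the 6 genes drawn by genomic distance to the annotated 3′ end differed in layout. In Slc38a1 and Slc7a14 they covered 2880 and 1693 nt, and in Slc7a1 and Slc6a6 they formed smaller blocks that covered 1163 and 1244 nt. In Slc8a1 and Slc44a1 all peaks sat in 1 compact group each, with midpoints 1668 and 1227 nt apart at most. Single peaks were narrow in these genes, with medians from 46.5 nt in Slc44a1 to 78 nt in Slc8a1, and neighbouring peaks often touched. In 18 of the 25 members with more than 1 peak, a peak other than the most enriched one had the highest −log10 p. The same count was not made over all coding genes, so this is not given as a trait of solute carriers.

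**Figure D5:**
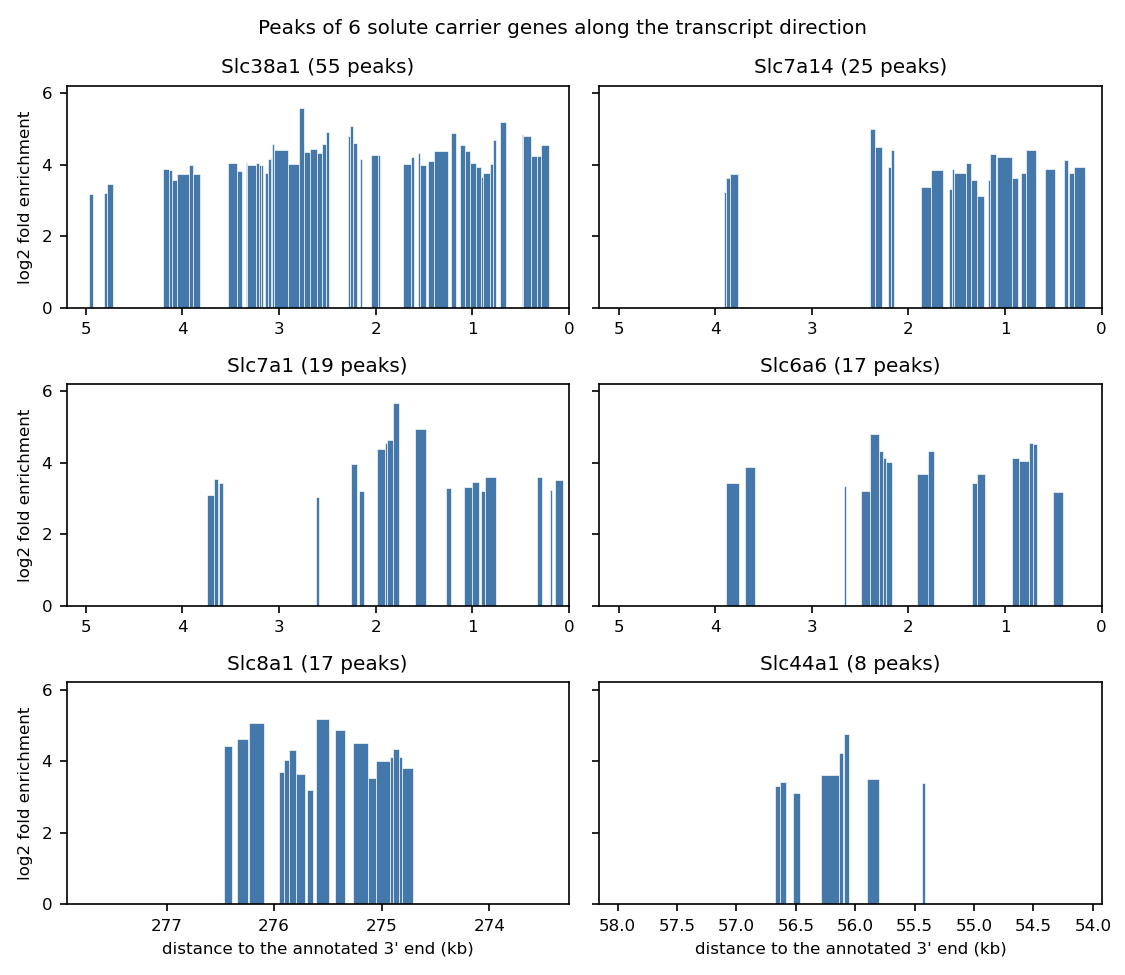
Log2 fold enrichment (bar height) and width (bar width) of each peak in 6 genes against the distance to the annotated 3′ end in kb, with the 3′ end towards the right. Slc38a1, Slc7a14, Slc7a1 and Slc6a6 are drawn over the last 5.2 kb, while the axes of Slc8a1 and Slc44a1 show their groups far from that end.

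Genes that regulate solute carriers had peaks as well. Of 26 partners and regulators listed from general knowledge, 5 had peaks. Wnk1, the kinase upstream of the cation-chloride cotransporters, held 25 peaks of up to 5.43, and Oxsr1, a kinase it activates, held 1 of 3.92. Snx27, a sorting nexin that returns carriers to the plasma membrane, held 19 of up to 5.25. Wnk3 had 3 peaks of up to 3.55, all where genes overlap, and Arl6ip1 had 1 of 3.46. Of 30 genes of amino acid sensing, by the kinase mTOR or the kinase gene Eif2ak4 and its target Atf4, 4 had peaks, Rragd, a small GTPase of the lysosomal sensing complex, with 23 of up to 5.31, the arginine sensor paralogue Castor2 with 4 of up to 3.65, and Rptor and Sesn2 with 1 each, of 3.48 and 3.04. Of 17 regulators of nutrient and metal responses, 5 had peaks, Srebf2, the master regulator of cholesterol synthesis, with 18 of up to 5.43, the iron regulator Ireb2 with 8 of up to 4.66, and Mlxip, Mlx and Hif1a with 1 each, of 3.53, 3.31 and 3.04, that of Hif1a where genes overlap. The shares of these 3 lists, 19.2%, 13.3% and 29.4%, stood beside the background of 8.53%. The lists were drawn up with earlier results of these data known and were not tested, so nothing is read from these shares. The first list also holds Slc9a3r1 and Slc9a3r2, which are counted among the solute carrier genes and had no peak.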

How the data were processed

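Per the labels' protocols, frozen N2A pellets were processed by a contract laboratory after the published eCLIP method. Per the submitters' processing notes the builds were mm10 and GRCm38.p6. For the aligner, peak caller and cut-offs the sources used here give no name or value. The deposited list has no header, and its 2 value columns were taken to be a −log10 p and a log2 fold enrichment of the authors, from their ranges and the column order of published eCLIP files. If that reading is wrong, statements on strength would change and those on position would not.

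Starts were converted to count from 1. Gene spans came from a RefSeq table of GRCm38.p6 and strands from a RefSeq promoter table, which gave 290 of the 375 genes. The planned direction from the peaks was replaced by the annotated strand where given, because of Slc3a1. Peaks were assigned by midpoint, with Python 3.11.15 and pandas 2.3.3, and assignment was tested on simulated peaks. Exons and genome sequence were not used here. With 1 combined list no test was run, and values are descriptions beside all coding genes. Every gene with a peak is named, apart from 1 that is not reported here. The genes and lists were chosen with earlier results of these data known.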

Additional observations from a re-analysis of the deposited data

How the results depend on the processing

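Of 38 alternative settings over counts, medians and shares, 30 stayed within 1.5 times the count or within the 95% binomial interval of the value. For the share of peaks near the 3′ end, that interval treats 237 peaks as independent. Peaks of 1 gene share their transcript, so the interval is too narrow and served only as a yardstick. With only peaks of log2 fold enrichment 4 or more, the members with a peak were 19 in place of 36, and their median strongest log2 fold enrichment was 4.54 in place of 4.09. That median was 3.60 when all peaks of a gene were averaged by their median. The share of peaks near the 3′ end, 86.5%, was 56.1% in a 2 kb window. In alternatives chosen after seeing the data, it was 93.2% without Slc8a1 and, within the interval, 82.4% without Slc38a1. At the stricter enrichment Slc39 had 2 members in place of 6, Slc25 2 in place of 5 and Slc35 0 in place of 3. No paired analysis was possible because the list combines all libraries, and for the same reason no replicate could be left out. Depth per peak was not known.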

Other observations

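Slc39a5, a zinc importer gene on the minus strand of chromosome 10, had no peak in its span, but 20 peaks in no annotated gene lay 258 to 1761 nt past its 3′ end. They were on the plus strand, at 128394150 to 128395694, with log2 fold enrichments of 3.07 to 4.98. They began 144 nt past the annotated end of Ankrd52, a plus-strand gene with 35 peaks of its own in the last 2890 nt. No peak outside gene spans lay within 5 kb past the 3′ end of a solute carrier gene on that gene's strand, among genes with a known direction.

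Many weak peaks had log2 fold enrichments identical to 9 decimals with those of other peaks. This held for 59.2% of all peaks with a −log10 p under 5 and 18.6% of those at 5 or more. Among the lone peaks of solute carrier genes it held for 7 of 11, and 9 of these 11 had a −log10 p under 5.

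Solute carrier genes hosted 8 annotated microRNA hairpins, 2 of them in genes with a peak, Slc43a2 and Slc25a39, and 0 peaks overlapped a hairpin.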
